A study of Homo sapiens with 12 samples.

Results

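The contractile and actin cytoskeleton genes are 43 genes chosen by name: actins, calponins, myosin II chains, tropomyosins and other thin filament proteins, intermediate filament proteins, cross-linkers, LIM domain proteins and the transcriptional regulators SRF and MYOCD. All 43 had a row in the table of estimated counts, and 42 of them had at least 10 counts over the 12 libraries, among 17173 such genes and 28901 gene names in all. MYOCD, the cofactor of SRF that drives the smooth muscle program, had 0 counts in every library, so a level under the floor of 3 counts in libraries of 28381782 to 53837400 counts would have gone undetected.

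The libraries came from ASC52telo hTERT, an immortalized human line of adipose stromal cells that can be turned into fat cells in culture, taken at day 14 of adipocyte differentiation. There were 4 groups of 3 libraries: scramble shRNA, scramble shRNA with LPS, linc-ADAIN shRNA (linc-ADAIN KD) and linc-ADAIN shRNA with LPS. LPS, the bacterial lipopolysaccharide that triggers an inflammatory response, was given at 100 ng/mL for the last 4 h before RNA was taken. The shRNAs were delivered by a lentivirus that also carried the green marker ZsGreen, and infected cells were sorted for it as a mixed population. All groups first shared a differentiation medium with insulin, dexamethasone, isobutylmethylxanthine and rosiglitazone. By the paper's methods, a maintenance medium with insulin and dexamethasone, but without isobutylmethylxanthine and rosiglitazone, then followed up to day 14. One shRNA stood against one scramble control, so the targeted RNA and other effects of that shRNA cannot be told apart. The 3 libraries of a group were repeats of 1 experiment, and p-values therefore measure only the spread within it. How far the shRNA lowered linc-ADAIN was not analysed here.

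The thin filament of actin and the motor myosin II generate tension in stress fibers, which tropomyosin, caldesmon and calponin steady and which filamin, alpha-actinin and vinculin tie together and to the membrane. The transcription factor SRF switches many of these genes on through the CArG box, with its cofactors MRTFA and MRTFB, which free actin monomers hold back in the cytoplasm. Fibroblast-like precursors of fat cells are rich in stress fibers and are known to take them apart as they round up and fill with lipid, and myofibroblasts and vascular cells raise the same genes.

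The CArG box, a run of A and T bases between CC and GG that reads alike on both strands, was searched for in the promoter windows of RefSeq on GRCh38.p14, from 250 bases before to 50 after a transcript start, with more than 1 window for some genes. It was in 12 of the 37 genes of the group that had a window (32.4%), against 454 of 35116 windows (1.29%), 438 of 27305 genes (1.6%) and 207 of 12043 genes tested without LPS (1.72%). The 12 were ACTC1, ACTG1, ACTG2, ACTN1, CNN2, FLNA, LDB3, MYLK, SMTN, SRF, SVIL and TPM4. ACTB, TAGLN, MYL9, MYH11 and DES had no window in the table. The stretches shown here hold the boxes, in capitals, of 7 genes described later, and each runs 5′ to 3′ toward the transcript start of its window. That start lay 264 kb inside the annotated gene (GENCODE 44) for MYLK, 102 kb for SVIL, 20.9 kb for SMTN, 11 kb for ACTG1 and 1.87 kb for ACTN1, so these boxes belong to internal starts, and at or within 0.04 kb of the gene's 5′ end for SRF and ACTC1. They lie at chr6:43171224-43171268 on the plus strand for SRF, chr17:81512869-81512908 on the minus strand for ACTG1, chr15:34795634-34795673 on the minus strand for ACTC1, chr3:123620618-123620657 on the minus strand for MYLK, chr22:31084937-31084976 on the plus strand for SMTN, chr14:68977713-68977752 on the minus strand for ACTN1 and chr10:29634980-29635019 on the minus strand for SVIL.
SRF: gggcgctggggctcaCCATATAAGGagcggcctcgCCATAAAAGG
ACTG1: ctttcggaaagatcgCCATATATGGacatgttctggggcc
ACTC1: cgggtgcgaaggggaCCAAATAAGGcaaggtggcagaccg
MYLK: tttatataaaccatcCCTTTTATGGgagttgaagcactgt
SMTN: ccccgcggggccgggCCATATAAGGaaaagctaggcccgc
ACTN1: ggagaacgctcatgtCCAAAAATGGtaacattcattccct
SVIL: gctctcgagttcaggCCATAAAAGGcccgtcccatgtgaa

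Both boxes of SRF stand close to its own start, the first base of the nearer one 10 bases before it and that of the farther one 30 bases before it. The single boxes of ACTG1, MYLK and FLNA each begin 94 bases before the start of their window's transcript. The counts are summed per gene and do not tell its starts apart. A match of letters is a description of the sequence and not a measured site of binding.

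**Figure D1:**
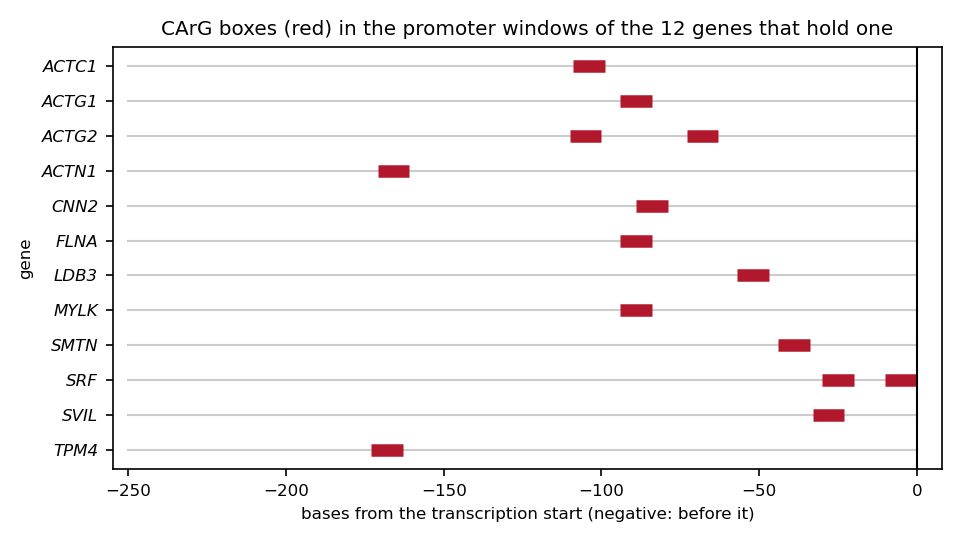
Position of each CArG box (red bar) on the horizontal axis in bases from the transcript start of its window, for the 12 genes whose window holds one, with 1 line per gene. ACTG2 and SRF hold 2 boxes each, and the boxes lie between 173 bases before the start, in TPM4, and the start itself, in SRF.

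In scramble control adipocytes the 42 genes took 2.83, 2.97 and 2.58% of a library's counts (mean 2.79% ± 0.195, SD, n = 3). The share was 1.94% ± 0.0753 with LPS, 2.03% ± 0.128 in linc-ADAIN KD and 1.67% ± 0.0586 in linc-ADAIN KD with LPS (SD, n = 3 each). No library of another group reached the scramble libraries, and the highest of them was a KD library at 2.17%. The 2 cytoplasmic actins ACTB and ACTG1 alone took 0.843% ± 0.0815 of the counts in scramble control and 0.393% ± 0.0168 in linc-ADAIN KD with LPS. Per kb of transcript, the highest levels in scramble control were those of ACTB (2746 CPM per kb, CPM being counts scaled to a common library size), ACTG1 (1907), the intermediate filament protein VIM (1673), the tropomyosin TPM4 (1126) and the myosin light chain MYL6 (1045). The muscle genes MYH11 (0.0542 CPM per kb), LDB3, DES and XIRP2 stood at the other end. Other genes described below as muscle proteins or muscle markers stood higher, with TAGLN at 202, FLNC at 199, SMTN at 36.4, CNN1 at 13.3 and LMOD1 at 8.27.

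For the 35 genes that averaged 50 or more counts a library, the scramble group had the highest mean level for 29, and linc-ADAIN KD with LPS had the lowest for 19. The scramble group had the lowest mean for 0 of the 35. How often all genes follow this order was not counted. In bulk RNA, fewer cells that express a gene and less of its RNA per cell cannot be told apart.

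**Figure D2:**
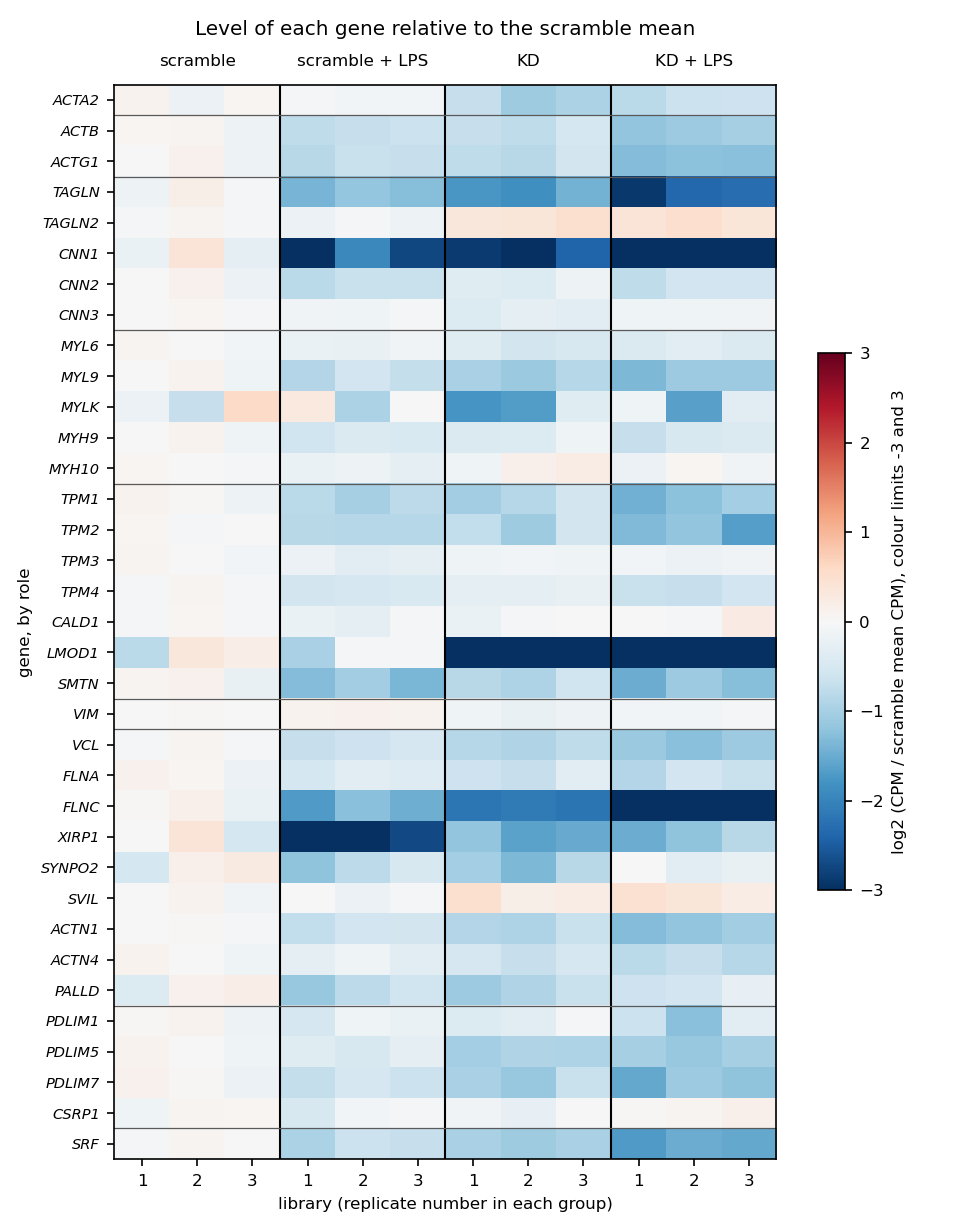
Each row is 1 of the 35 genes that averaged 50 or more counts a library, grouped by role with thin lines between roles, and each column is 1 library; color gives log2 of CPM over the scramble mean, and values beyond -3 are drawn at that limit. Blue fills most of the 9 columns to the right of the scramble libraries, deepest for TAGLN, CNN1, LMOD1 and FLNC, while TAGLN2 and SVIL are red in the 6 KD columns.

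Differences are given as log2 fold changes with their standard error (SE), KD over scramble or LPS over no LPS, from the quasi-likelihood test of edgeR, adjusted over all genes tested by Benjamini-Hochberg, and levels as CPM after TMM scaling. A gene is called lower or higher where its adjusted p was under 0.05. Without LPS, 28 of the 42 genes were lower in linc-ADAIN KD than in scramble control and 1, TAGLN2, was higher, while 15.1% of all 16217 genes tested were lower and 12.1% higher. With the added condition of a 2-fold difference, 8 were lower and 0 higher, against 3.49% and 4.28% of all genes. The median log2 fold change was -0.77 over the 42 genes and 0.02 over all genes, and 36 of the 42 had a negative value. With ACTG2 and XIRP2, which had 0 counts in every KD library, set at the bound that a floor of 3 counts gives, the median was -0.74. The 8 were ACTC1, TAGLN, CNN1, MYLK, LMOD1, FLNC, XIRP1 and SYNPO2. ACTC1 (adjusted p = 0.0497) and MYLK (adjusted p = 0.0499) were barely past the threshold. The count of 8 became 5 with libraries scaled by size only, 5 without linc-ADAIN KD replicate 2 and 10 without linc-ADAIN KD replicate 3.

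With LPS in both arms, 19 of 40 genes tested were lower in linc-ADAIN KD and 4 higher, against 14.2% and 12.7% of all 15981 genes. Past 2-fold, 4 were lower (TAGLN, CNN1, LMOD1 and FLNC) and 1 higher (XIRP1), against 3.9% and 4.58% of all genes. The median was -0.26 over the 40 genes and 0.03 over all genes. Of the 29 genes called without LPS and the 23 called with LPS, 21 were shared, which is 72.4% of the first list and 91.3% of the second. The direction was the same for 19 of them and opposite for SYNPO2 and XIRP1. The sharing of the 2 lists over all genes was not counted.

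LPS alone, in scramble control, lowered 21 of 42 genes and raised 0, against 8.38% and 5.9% of all 15920 genes tested. Past 2-fold, 5 were lower (TAGLN, CNN1, SMTN, FLNC and XIRP1) and 0 higher, against 1.28% and 1.4% of all genes. The median was -0.48 over the 42 genes, 40 of which had a negative value, and 0.02 over all genes. In linc-ADAIN KD, LPS lowered 13 of 40 genes and raised 3 (CNN3, SYNPO2 and PALLD), against 6.03% and 5.32% of all 16169 genes, and the median was -0.20 over these genes and 0.01 over all. Past 2-fold, 2 were lower (CNN1 and FLNC) and 0 higher, against 0.946% and 1.3% of all genes. The count of 16 became 10 without linc-ADAIN KD with LPS replicate 1, and the count of 2 became 1 without that library, linc-ADAIN KD with LPS replicate 3 or linc-ADAIN KD replicate 1 or 3. The list called in scramble control and that called in KD shared 15 genes (71.4% of the first, 93.8% of the second), 13 in the same direction, with PALLD and SYNPO2 opposite. Here too the sharing over all genes was not counted. The KD comparison without LPS and the LPS comparison in scramble control use the same 3 scramble libraries, so their values for a gene are given side by side and not as independent.

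**Figure D3:**
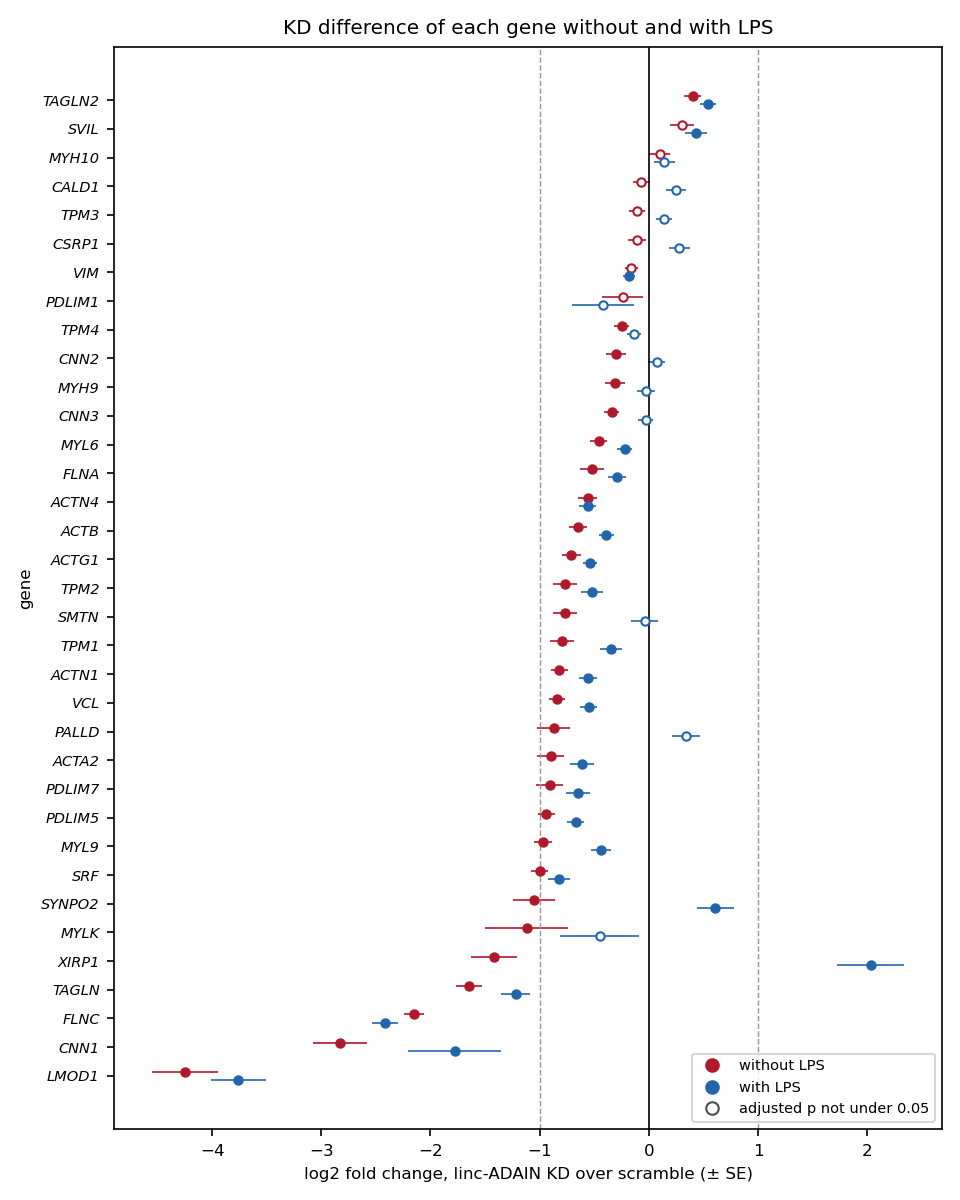
Log2 fold change of linc-ADAIN KD over scramble (horizontal axis, ± SE) for the 35 genes that averaged 50 or more counts a library, without LPS in red and with LPS in blue; open circles have an adjusted p that was not under 0.05 and dashed lines mark 2-fold. Most points lie left of 0 in both conditions, LMOD1 farthest at -4.25 and -3.76, and XIRP1 and SYNPO2 lie on opposite sides without and with LPS.

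ACTA2, alpha smooth muscle actin and the usual label of myofibroblasts, was lower in linc-ADAIN KD and did not pass the test for LPS. Its levels were 33.9, 27.9 and 32.6 CPM in scramble control, 30.1, 29.8 and 29.6 with LPS, 19.5, 15 and 16.2 in KD and 18.1, 20.2 and 20.3 in KD with LPS. All 6 KD libraries lay under all 6 scramble libraries. The KD difference was -0.90 (SE 0.12, adjusted p = 0.00022) without LPS and -0.61 (SE 0.11, adjusted p = 0.00065) with it. The LPS difference was -0.06 (SE 0.097, adjusted p = 0.74) in scramble control and 0.21 (SE 0.14, adjusted p = 0.39) in KD. ACTA2 lies at chr10:88935074-88991339 on the minus strand of GRCh38 (GENCODE 44), where its exons overlap those of ACTA2-AS1 and FAS on the other strand. Exons of 23 of the genes overlap a gene on the opposite strand, and whether the counting used strand is not given in the sources used here.

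ACTC1, the cardiac actin, was rare. It had 53, 82 and 76 counts in scramble control, 75, 25 and 26 with LPS, 22, 29 and 20 in KD and 31, 9 and 4 in KD with LPS. The KD libraries without LPS lay under the scramble libraries, with a difference of -1.33 (SE 0.46, adjusted p = 0.0497). That call was lost in 11 of 13 other settings, among them without any 1 of the 6 libraries, with an adjusted p of up to 0.17. ACTG2, the enteric smooth muscle actin, had 4, 6 and 20 counts in scramble control, 0 in all 3 libraries of scramble with LPS and of KD, and 0, 2 and 0 in KD with LPS. Against a floor of 3 counts per library, its scramble level was at least 2.87-fold higher than in KD and at least 2.52-fold higher than with LPS, and its adjusted p was 0.056 and 0.078. The muscle actins differ little from each other in coding sequence, as do ACTB and ACTG1, and how kallisto divides reads between such copies was not tested.

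ACTB and ACTG1, the 2 cytoplasmic actins that every cell uses and that often serve as loading controls, were lower with KD and with LPS. ACTB stood at 5182, 5284 and 4462 CPM in scramble control, 2922, 3094 and 3194 with LPS, 3071, 2933 and 3454 in KD and 2200, 2342 and 2511 in KD with LPS. The corresponding ACTG1 levels were 3688, 3978 and 3313, then 2068, 2307 and 2284, then 2144, 2068 and 2501, and 1479, 1561 and 1532 CPM. For both genes every scramble library was above all others and every KD library with LPS below all others. The KD difference without LPS was -0.65 (SE 0.085, adjusted p = 0.00012) for ACTB and -0.71 (SE 0.09, adjusted p = 0.00011) for ACTG1. With LPS in both arms it was -0.39 (SE 0.068, adjusted p = 0.00077) and -0.54 (SE 0.066, adjusted p = 3.4e-05). The LPS difference of ACTB was -0.68 (SE 0.084, adjusted p = 0.00021) in scramble control and -0.42 (SE 0.07, adjusted p = 0.00084) in KD. For ACTG1 the LPS differences were -0.71 (SE 0.086, adjusted p = 0.0002) and -0.55 (SE 0.07, adjusted p = 9.1e-05).

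In the calponin family, 4 of 5 genes were lower in KD without LPS and 1 was higher. CNN1, calponin 1, which binds actin and restrains myosin in smooth muscle, had 17.4, 26.1 and 16.3 CPM in scramble control, 2.4, 5.19 and 2.98 with LPS, 2.71, 1.95 and 3.78 in KD and 0.622, 1.53 and 0.879 in KD with LPS. Its lowest scramble library was above every other library, and the KD libraries with LPS were the lowest 3. The KD difference was -2.83 (SE 0.25, adjusted p = 6.2e-06), 7.11-fold, without LPS and -1.78 (SE 0.43, adjusted p = 0.0072) with it. The LPS difference was -2.50 (SE 0.27, adjusted p = 7.9e-05) in scramble control and -1.46 (SE 0.43, adjusted p = 0.043) in KD. The last of these calls was lost when linc-ADAIN KD replicate 1 or 3, or linc-ADAIN KD with LPS replicate 1 or 3, was left out, with an adjusted p of up to 0.2, and the KD call with LPS was lost without scramble with LPS replicate 2 (adjusted p = 0.054).

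TAGLN (transgelin), an actin cross-linker that marks smooth muscle and myofibroblasts, followed the same order at a higher level. It had 686, 859 and 753 CPM in scramble control, 292, 342 and 318 with LPS, 228, 215 and 287 in KD and 103, 150 and 158 in KD with LPS. No library of one group overlapped another group. The KD differences were -1.65 (SE 0.12, adjusted p = 1.1e-06) without LPS and -1.22 (SE 0.13, adjusted p = 1.1e-05) with it, and the LPS differences -1.26 (SE 0.096, adjusted p = 5.7e-06) in scramble control and -0.83 (SE 0.14, adjusted p = 0.001) in KD.

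TAGLN2, its widely expressed relative, went the other way. It rose from 234 to 256 CPM in the scramble libraries to between 307 and 340 in the KD libraries, with a difference of 0.40 (SE 0.075, adjusted p = 0.0017) without LPS and 0.54 (SE 0.073, adjusted p = 8.2e-05) with it. Its LPS differences, -0.12 (adjusted p = 0.34) and 0.01 (adjusted p = 0.96), did not pass. CNN3, the calponin of non-muscle cells, was lower in KD without LPS (-0.34, SE 0.071, adjusted p = 0.0042) and gave -0.03 (SE 0.068, adjusted p = 0.79) with LPS. LPS raised CNN3 in KD (0.22, SE 0.067, adjusted p = 0.046), a call lost in 7 of 13 other settings, among them without linc-ADAIN KD replicate 1 or 3 or any 1 of the linc-ADAIN KD libraries with LPS (adjusted p up to 0.19). CNN2 was lower in 3 of the 4 comparisons, with KD means of 270 CPM against 334 in scramble control.

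Of the 6 genes for myosin II chains and their kinase, 4 were lower in KD without LPS and 2 did not pass. MYL9, the regulatory light chain whose phosphorylation turns myosin on, had 579, 618 and 529 CPM in scramble control, 315, 385 and 348 with LPS, 295, 268 and 316 in KD and 227, 271 and 272 in KD with LPS. The scramble libraries stood clear of the other 9. The KD differences were -0.97 (SE 0.086, adjusted p = 6.2e-06) without LPS and -0.44 (SE 0.094, adjusted p = 0.0029) with it. LPS gave -0.71 (SE 0.091, adjusted p = 0.00029) in scramble control and -0.19 (SE 0.087, adjusted p = 0.21) in KD. MYL6, the essential light chain of most cells, was lower in KD by -0.46 (SE 0.079, adjusted p = 0.00099) without LPS and -0.22 (SE 0.069, adjusted p = 0.028) with it, the second call being lost with library size only (adjusted p = 0.16) and without scramble with LPS replicate 3 or linc-ADAIN KD with LPS replicate 1 or 3 (adjusted p up to 0.11).

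MYLK, the kinase that phosphorylates MYL9, varied widely within groups. It had 8.77, 6.22 and 14.9 CPM in scramble control, 12.3, 5.15 and 9.82 with LPS, 2.91, 3.1 and 7.75 in KD and 9.05, 3.21 and 7.98 in KD with LPS. The groups overlapped, and the KD difference without LPS of -1.12 (SE 0.38, adjusted p = 0.0499) lost its call in 7 of 13 other settings, among them without scramble replicate 1 or 3 and without linc-ADAIN KD replicate 1 or 2. Without scramble replicate 3 it was -0.72 (adjusted p = 0.23). With LPS it was -0.45 (SE 0.36, adjusted p = 0.41). MYH9, the main heavy chain here, was lower in KD without LPS (-0.31, SE 0.095, adjusted p = 0.029) and with LPS in scramble control (-0.48, SE 0.084, adjusted p = 0.0025). The KD call of MYH9 was lost with library size only (adjusted p = 0.14) and without scramble replicate 1 or 2 or linc-ADAIN KD replicate 1 or 2 (adjusted p up to 0.13). MYH10, the other non-muscle heavy chain, passed in no comparison. MYH11, the smooth muscle heavy chain, was near 0 throughout, with 16, 9 and 30 counts in scramble control, 18, 6 and 10 with LPS, 22, 32 and 0 in KD and 6, 8 and 21 in KD with LPS.

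LMOD1, leiomodin, which starts actin filaments in smooth muscle, showed the widest KD difference among the genes past the test. It lies at chr1:201896456-201946548 on the minus strand. It had 18.6, 41.3 and 37.5 CPM in scramble control, 16.6, 31.8 and 31.2 with LPS, 2.13, 1.28 and 1.78 in KD and 2.12, 1.74 and 2.04 in KD with LPS. The lowest scramble library, at 16.6 CPM, was far above the highest KD library, at 2.13 CPM. The KD difference was -4.25 (SE 0.30, adjusted p = 1.1e-06), or 19.0-fold, without LPS and -3.76 (SE 0.25, adjusted p = 8.8e-08), or 13.5-fold, with it. No LPS difference passed (-0.28, SE 0.28, adjusted p = 0.59 in scramble control and 0.19, SE 0.38, adjusted p = 0.84 in KD).

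The tropomyosins coil along the actin filament. TPM1 had 466, 440 and 392 CPM in scramble control, 246, 217 and 250 with LPS, 209, 240 and 293 in KD and 160, 185 and 213 in KD with LPS. TPM2 had 267, 248 and 255, then 144, 143 and 142, then 155, 122 and 174, and 103, 113 and 81.8 CPM. In both genes the scramble libraries were the highest 3. The KD difference without LPS was -0.80 (SE 0.11, adjusted p = 0.00027) for TPM1 and -0.77 (SE 0.11, adjusted p = 0.00031) for TPM2. LPS in scramble control gave -0.85 (SE 0.089, adjusted p = 6.3e-05) and -0.83 (SE 0.069, adjusted p = 1.2e-05). With LPS the KD difference of TPM2 was -0.52 (SE 0.10, adjusted p = 0.002), and that of TPM1 was -0.35 (SE 0.10, adjusted p = 0.02), a call lost in 4 of 13 other settings, among them without scramble with LPS replicate 3 or linc-ADAIN KD with LPS replicate 1 or 2 (adjusted p up to 0.093). LPS in KD gave -0.60 (SE 0.13, adjusted p = 0.0065) for TPM2 and -0.41 (SE 0.12, adjusted p = 0.038) for TPM1, whose groups overlapped and whose call was lost without linc-ADAIN KD replicate 2 or 3 or linc-ADAIN KD with LPS replicate 1 or 2 (adjusted p up to 0.16).

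TPM4, the most abundant tropomyosin, was lower with LPS (-0.49, SE 0.074, adjusted p = 0.00092 in scramble control and -0.39, SE 0.057, adjusted p = 0.00037 in KD) and less so with KD (-0.25, SE 0.067, adjusted p = 0.015, lost with library size only and, at an adjusted p of 0.087, without scramble replicate 2). TPM3 passed in no comparison, though its LPS difference in scramble control (-0.24, SE 0.077, adjusted p = 0.061) passed in 6 of 13 other settings, and neither did CALD1, caldesmon, at 474 to 566 CPM in the 4 group means. SMTN, smoothelin, is given with the genes of the interaction.

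Neither intermediate filament gene passed in KD without LPS. VIM, vimentin, the intermediate filament of stromal cells, had 3584, 3664 and 3565 CPM in scramble control, 3903, 3933 and 3847 with LPS, 3309, 3067 and 3258 in KD and 3407, 3432 and 3481 in KD with LPS. The KD libraries lay under the scramble libraries of the same treatment, by -0.16 (SE 0.063, adjusted p = 0.081) without LPS and -0.18 (SE 0.056, adjusted p = 0.031) with it, and the second call was lost in 7 of 13 other settings, among them without scramble with LPS replicate 2 or 3 or any 1 of the linc-ADAIN KD libraries with LPS (adjusted p up to 0.11). DES, desmin, the muscle counterpart, had 6, 2 and 2 counts in scramble control, 0, 0 and 6 with LPS, 0, 17 and 3 in KD and 3, 0 and 0 in KD with LPS, which is too few to compare.

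**Figure D4:**
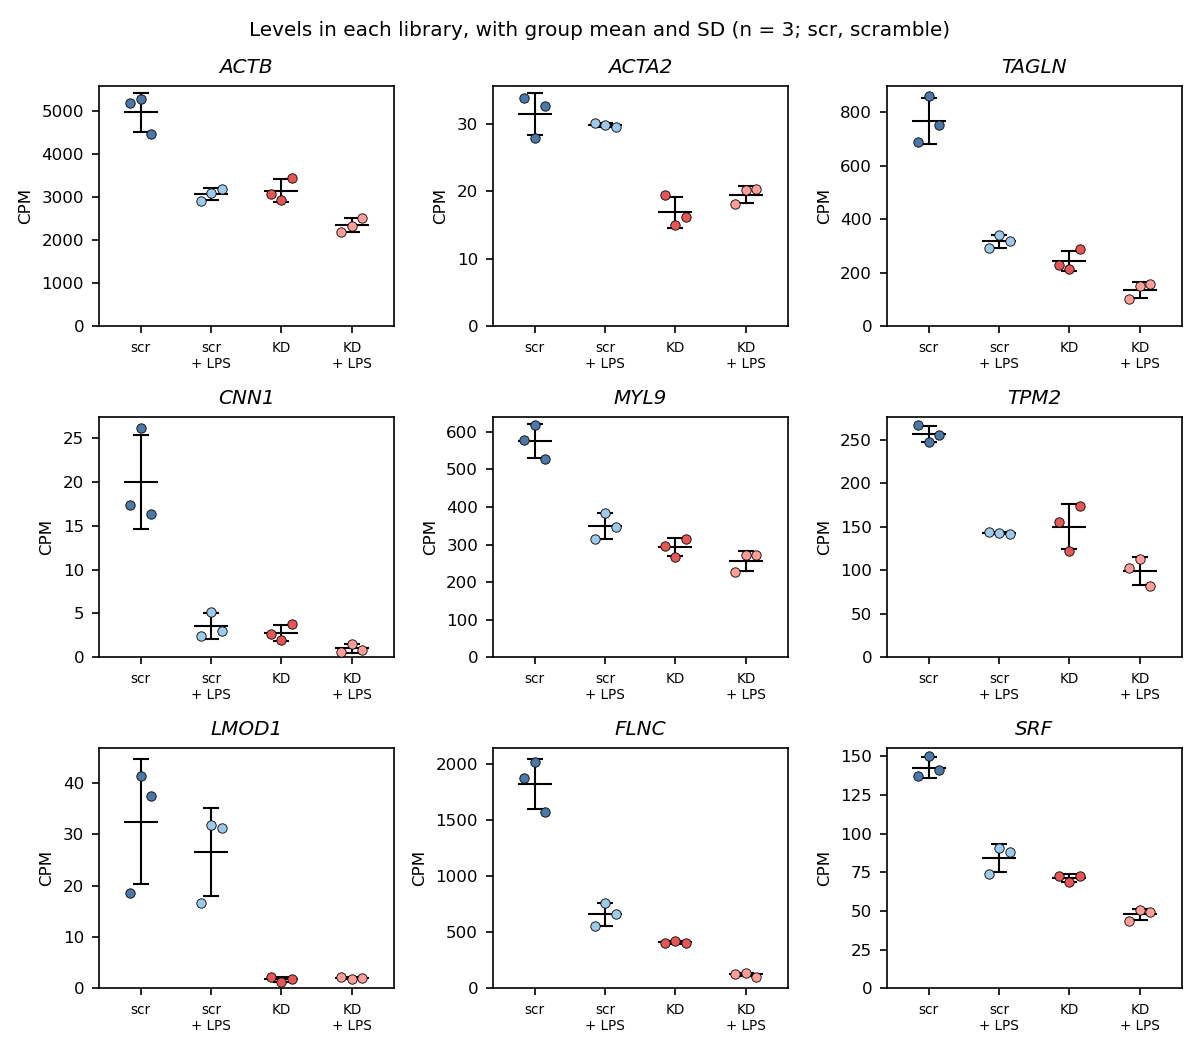
CPM after TMM scaling (vertical axes, from 0) in each library as points, with the group mean and SD (n = 3), for 9 genes; scr is scramble and KD is linc-ADAIN KD. ACTB, TAGLN, CNN1, MYL9, TPM2, FLNC and SRF step down from scramble to linc-ADAIN KD with LPS, whereas ACTA2 and LMOD1 differ by shRNA alone, LMOD1 being under 3 CPM in all 6 KD libraries.

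Among the cross-linkers and adhesion proteins, 8 of 10 were lower in KD without LPS, 3 of them past 2-fold. FLNC, filamin C, the muscle filamin that shields stretched actin structures, had 1876, 2016 and 1576 CPM in scramble control, 558, 764 and 665 with LPS, 405, 422 and 402 in KD and 129, 136 and 105 in KD with LPS. The gene lies at chr7:128830406-128859274 on the plus strand. No groups overlapped, and the highest KD library with LPS, at 136 CPM, stood far under the lowest scramble library, at 1576 CPM. The KD differences were -2.15 (SE 0.092, adjusted p = 5.7e-08), 4.44-fold, without LPS and -2.42 (SE 0.12, adjusted p = 7.4e-09), 5.36-fold, with it. LPS gave -1.45 (SE 0.12, adjusted p = 1.2e-05) in scramble control and -1.73 (SE 0.09, adjusted p = 8.2e-09) in KD.

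VCL, vinculin, which links actin to focal adhesions, was lower in all 4 comparisons, by -0.84 (SE 0.072, adjusted p = 5.2e-06) and -0.55 (SE 0.077, adjusted p = 0.00012) for KD without and with LPS, and by -0.59 (SE 0.078, adjusted p = 0.00037) and -0.30 (SE 0.072, adjusted p = 0.013) for LPS in scramble control and in KD. ACTN1, the alpha-actinin of stress fibers and adhesions, gave close values of -0.82 (SE 0.08, adjusted p = 1.4e-05), -0.56 (SE 0.084, adjusted p = 0.0002), -0.60 (SE 0.077, adjusted p = 0.00028) and -0.35 (SE 0.086, adjusted p = 0.014) in the same order. The LPS call in KD was lost for VCL without linc-ADAIN KD with LPS replicate 2 (adjusted p = 0.061) and for ACTN1 without linc-ADAIN KD replicate 3 or linc-ADAIN KD with LPS replicate 1 or 2 (adjusted p up to 0.082). ACTN4 was lower with KD in both conditions and did not pass for LPS, and FLNA, the filamin of most cells, was lower in 3 of the 4 comparisons. SVIL, supervillin, was higher in KD with LPS, at 35.3 to 41.2 CPM against 26.7 to 30.1. XIRP2 had 0 to 7 counts per library.

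The LIM domain proteins that sit on the Z-disc and on stress fibers were split. PDLIM5 was lower in KD by -0.94 (SE 0.079, adjusted p = 3.8e-06) without LPS and -0.67 (SE 0.078, adjusted p = 2e-05) with it, and PDLIM7 by -0.91 (SE 0.12, adjusted p = 0.00011) and -0.65 (SE 0.11, adjusted p = 0.00056). Both were also lower with LPS in scramble control, by -0.36 (SE 0.083, adjusted p = 0.013) and -0.60 (SE 0.091, adjusted p = 0.00096), and the first of these calls was lost without scramble replicate 1 or 2 (adjusted p up to 0.061). CSRP1 and PDLIM1 passed in no comparison, and PDLIM3 and LDB3, with at most 53 counts in a library, did not either.

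SRF itself had 137, 150 and 141 CPM in scramble control, 74.2, 90.7 and 88.1 with LPS, 72.7, 68.4 and 72.8 in KD and 43.8, 50.7 and 49.1 in KD with LPS. The 4 groups did not overlap. Its KD difference was -1.0 (SE 0.075, adjusted p = 1.7e-06) without LPS, just short of 2-fold, and -0.82 (SE 0.10, adjusted p = 3.5e-05) with it, and its LPS differences were -0.75 (SE 0.088, adjusted p = 0.00016) in scramble control and -0.57 (SE 0.091, adjusted p = 0.0006) in KD. The KD differences of genes with and without a CArG box were close: the median without LPS was -0.74 over the 12 genes with a box, such as ACTG1 and ACTN1, and -0.80 over the 25 without (-0.77 with XIRP2 at its bound), and it was -0.05 over all 207 tested genes with a box. These medians do not test the part of SRF. Several boxes lie at internal starts, while the counts are summed per gene. Only the promoter windows were searched, and genes without a window, TAGLN and MYL9 among them, are in neither set.

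The interaction, which asks whether the KD difference itself changed with LPS, passed for 4 of 42 genes, all with a positive value, against 0.943% of all 17173 genes positive and 0.332% negative. The median over the 42 genes was 0.28 and 36 of them were positive, beside a median of 0.01 over all genes, and without ACTG2 and XIRP2 the median was 0.27. XIRP1, an actin-binding repeat protein of muscle junctions at chr3:39183210-39192596 on the minus strand, had 16.2, 21.3 and 11.3 CPM in scramble control, 1.64, 1.19 and 2.51 with LPS, 7.14, 5.37 and 5.68 in KD and 5.83, 7.03 and 9.14 in KD with LPS. LPS took the scramble libraries from the highest of the 4 groups to the lowest, while the KD groups overlapped. KD was therefore lower than scramble without LPS (-1.42, SE 0.21, adjusted p = 0.0004) and higher with it (2.03, SE 0.31, adjusted p = 0.00021), and the interaction was 3.45 (SE 0.38, adjusted p = 0.00014). The LPS difference was -3.16 (SE 0.29, adjusted p = 2.1e-05) in scramble control and 0.27 (SE 0.22, adjusted p = 0.51) in KD.

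SYNPO2, synaptopodin 2, an actin bundling protein of the Z-disc, had 19.4, 30.8 and 33.6 CPM in scramble control, 12.1, 16.1 and 20.1 with LPS, 13.7, 11 and 15.6 in KD and 28.0, 21.9 and 24 in KD with LPS. The KD difference was -1.05 (SE 0.19, adjusted p = 0.0015) without LPS and 0.61 (SE 0.17, adjusted p = 0.017) with it. The scramble groups overlapped and the KD groups did not. LPS lowered SYNPO2 in scramble control (-0.78, SE 0.21, adjusted p = 0.028) and raised it in KD (0.87, SE 0.15, adjusted p = 0.0013), and the interaction was 1.66 (SE 0.28, adjusted p = 0.0055). The LPS call in scramble control was lost without scramble replicate 2 or 3 or scramble with LPS replicate 1 or 2, with an adjusted p of up to 0.11. The KD call with LPS was lost without scramble with LPS replicate 1 or linc-ADAIN KD with LPS replicate 1, with an adjusted p of up to 0.076.

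PALLD, palladin, a scaffold of stress fibers, had 246, 357 and 373 CPM in scramble control, 149, 190 and 214 with LPS, 152, 175 and 206 in KD and 212, 217 and 274 in KD with LPS. Its KD difference was -0.87 (SE 0.15, adjusted p = 0.00095) without LPS and 0.34 (SE 0.13, adjusted p = 0.062) with it, which passed in 5 of 13 other settings, and the interaction was 1.22 (SE 0.22, adjusted p = 0.0078). LPS gave -0.81 (SE 0.16, adjusted p = 0.0049) in scramble control and 0.40 (SE 0.11, adjusted p = 0.037) in KD. The last call was lost in 6 of 13 other settings, among them without linc-ADAIN KD replicate 1 or 2 and without linc-ADAIN KD with LPS replicate 2 or 3 (adjusted p up to 0.2). In scramble control every library without LPS was above every library with it.

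SMTN, a smooth muscle protein of the actin cytoskeleton, had 126, 131 and 103 CPM in scramble control, 49.0, 58.1 and 46.2 with LPS, 67.5, 63.5 and 79.9 in KD and 42.5, 56.4 and 49.7 in KD with LPS. Both LPS groups overlapped, with a KD difference of -0.04 (SE 0.12, adjusted p = 0.85), whereas without LPS KD was lower by -0.77 (SE 0.11, adjusted p = 0.00027). LPS gave -1.22 (SE 0.11, adjusted p = 2.1e-05) in scramble control and -0.50 (SE 0.12, adjusted p = 0.01) in KD. The interaction of 0.73 (SE 0.17, adjusted p = 0.044) lost its call in 10 of 18 other settings, among them the omission of scramble replicate 1 or 2, scramble with LPS replicate 1 or 3, linc-ADAIN KD replicate 1 or 2 and linc-ADAIN KD with LPS replicate 2 or 3, with an adjusted p of up to 0.15. Its LPS call in KD was lost without linc-ADAIN KD with LPS replicate 1 (adjusted p = 0.052). The other 3 interactions kept theirs in all 18.

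**Figure D5:**
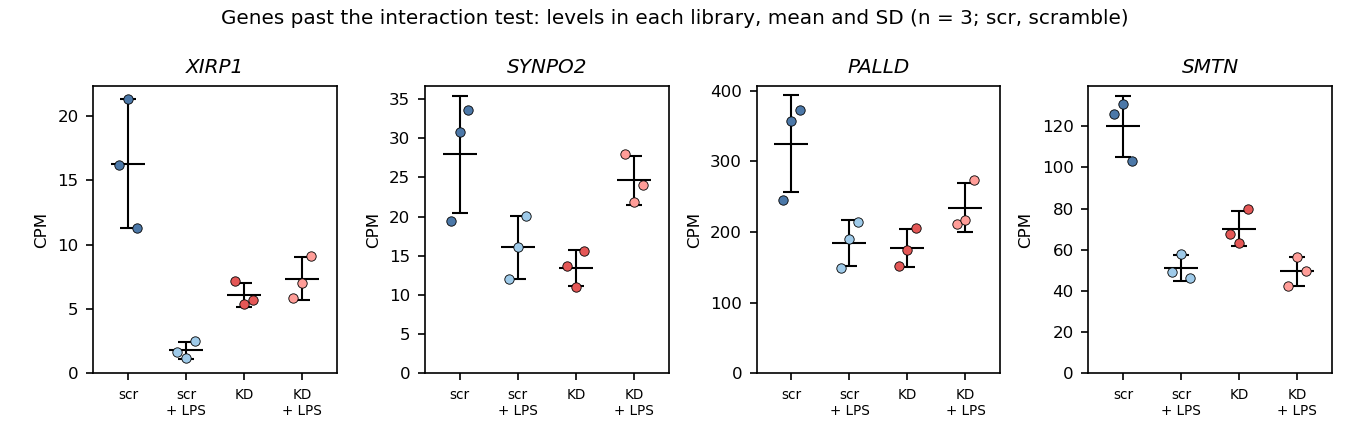
CPM after TMM scaling (vertical axes, from 0) in each library as points, with the group mean and SD (n = 3), for the 4 genes past the interaction test; scr is scramble and KD is linc-ADAIN KD. With LPS, XIRP1 drops from a mean of 16.3 to 1.78 CPM in scramble and stays at 6.06 and 7.33 in KD, SYNPO2 and PALLD drop in scramble and are higher in KD, and SMTN drops in both.

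Other known targets of SRF and MRTF made a list of 26 genes, of which 23 were tested. LPS lowered 14 of the 23 in scramble control, 8 past 2-fold, and raised 2, with a median of -0.89, beside 8.38% of all genes lower and 5.9% higher. KD without LPS gave 11 lower and 2 higher with a median of -0.53, beside 15.1% and 12.1% of all genes. The 2 higher, named after their values were seen, were ANKRD1 (2.04, SE 0.32, adjusted p = 0.00048) and CCN1 (0.30, SE 0.077, adjusted p = 0.012). With LPS in both arms, 9 were lower in KD and 6 higher, with a median of -0.27, beside 14.2% and 12.7% of all genes. ITGA5, the integrin chain that binds fibronectin, had 2426 ± 87.3 CPM in scramble control, 832 ± 50.7 with LPS, 1028 ± 80.4 in KD and 349 ± 15 in KD with LPS (SD, n = 3). TNS1, the adhesion protein tensin 1, was lower in KD by -1.41 (SE 0.087, adjusted p = 3.9e-07) without LPS and -1.79 (SE 0.083, adjusted p = 3.9e-09) with it, and was raised by LPS in scramble control (0.60, SE 0.087, adjusted p = 0.00072). FHL2, a LIM protein that SRF controls, was lower by -0.99 (SE 0.077, adjusted p = 2.2e-06) with KD and -1.42 (SE 0.09, adjusted p = 1.4e-06) with LPS. MRTFB, a cofactor of SRF picked out after its values were seen, was lower in KD without LPS (-0.51, SE 0.12, adjusted p = 0.0059) and with LPS (-1.26, SE 0.12, adjusted p = 3e-06), higher with LPS in scramble control (0.44, SE 0.082, adjusted p = 0.0038), and negative in the interaction (-0.74, SE 0.17, adjusted p = 0.032).

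The ARP2/3 complex, which builds branched rather than bundled actin, and proteins that regulate it were a list of 15 genes. In KD without LPS 2 of them were lower, near the 15.1% of all genes, ACTR3 (-0.32, SE 0.081, adjusted p = 0.011) and WASF2 (-0.27, SE 0.077, adjusted p = 0.023), 0 were higher, and the median was -0.06. With LPS in both arms 0 were lower in KD and 2 higher, beside 14.2% and 12.7% of all genes, and the median was 0.15. The 2 were ARPC3 (0.35, SE 0.079, adjusted p = 0.0045) and CORO1C (0.34, SE 0.087, adjusted p = 0.01), both chosen after their values were seen. LPS lowered 7 of the 15 in scramble control, beside 8.38% of all genes, and 1 in KD, beside 6.03%.

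Markers of other cell states moved with the shRNA, and their part in the results above was not tested. The counts of markers called here are for KD without LPS, where 15.1% of all genes were lower and 12.1% higher. The summed level of 10 adipocyte markers was 3200 to 4427 CPM in scramble control, 3702 to 4288 with LPS, 642 to 1880 in KD and 519 to 1206 in KD with LPS, and 7 of the 10 were lower in KD without LPS. The mean of ADIPOQ (adiponectin) was 919 CPM in scramble control and 349 in KD, and that of PPARG was 65.2 and 35.6 CPM. The paper reports the opposite direction in this line, with KD raising the RNA and protein of adipogenic markers, adiponectin and PPARγ among them. The reason for this conflict was not tested. KD replicate 3 had the lowest adipocyte marker sum of its group. Without that library, 28 of the cytoskeletal genes passed in KD without LPS, 10 of them past 2-fold. The 9 pericyte and vascular smooth muscle markers summed to 269 to 287 CPM in scramble control and 94.4 to 119 in KD, with 5 of the 8 tested lower and 0 higher without LPS. The 12 stromal markers summed to 8659 to 10605 CPM in scramble control and 12244 to 14188 in KD, with 6 of the 11 tested higher and 3 lower. Most of that rise was DCN, which averaged 2671 CPM in scramble control and 4904 in KD. The 3 lower were THY1 (764 and 148 CPM), ENG (285 and 111) and PDGFRB (977 and 523). Endothelial markers summed to 24 to 27.8 CPM in scramble control, 16.1 to 17.8 with LPS, 12.5 to 13.4 in KD and 9.23 to 13.8 in KD with LPS. MCAM, a pericyte surface protein, had 55.4 to 76.5 CPM in scramble control and 9.73 to 20.9 in KD, while RGS5, another pericyte marker, had 1.52 to 4.8 CPM in all 12 libraries. Skeletal and cardiac muscle markers summed to at most 0.903 CPM in a library, with MYOD1 and MYH2 at 0 in all of them, and the proliferation markers to 34.2 to 58.1 CPM in scramble control and 57.0 to 79.5 in KD, where 2 of 6 were higher. The 7 leukocyte markers summed to 52.8 to 58.7 CPM in scramble control and 31.2 to 36.9 in KD, nearly all of it CD68, which averaged 53.6 and 31.1 CPM, while CD3E was at 0 in all libraries and PTPRC at 0.316 CPM or less. The response to LPS was present in all LPS libraries: 6 inflammatory genes that include CXCL8, IL6 and CCL2 summed to 465 to 617 CPM in scramble control and 1565 to 1859 with LPS, and to 863 to 907 CPM in KD and 3715 to 4089 with LPS.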

How the data were processed

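Poly(A) RNA of 12 libraries was sequenced with a stranded kit. The authors quantified reads with kallisto 0.44.0 on GRCh38, and the deposited values are estimated counts, whole numbers summed per gene name; the submitters' processing notes also list bcl2fastq 2.19 and DESeq2 1.32.0. The annotation release, the program that summed transcripts and its strand setting are not given in the sources used here. Counts without a gene name (0.235 to 0.306% of a library) were left out. Totals were 48094472 to 53837400 counts in scramble, 31523913 to 44539531 in scramble with LPS, 33405328 to 50533430 in KD and 28381782 to 45285700 in KD with LPS.

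Genes with at least 10 counts in the libraries fitted were tested with edgeR 4.0.16 in R 4.3.3 (TMM, quasi-likelihood F test, two-sided, Benjamini-Hochberg over all genes), on 6 libraries for each pairwise comparison and 12 for the interaction. Thresholds were an adjusted p of 0.05, alone or with a 2-fold difference. On simulated data with 200 changed genes among 16211, the comparison of KD without LPS recovered 97%, and 7.18% of its calls were false. The interaction recovered 84.5% of 200 changed genes among 17161, and 4.52% of its calls were false. How far these shares hold for differences under 2-fold or for genes of few counts was not tested. Levels are CPM scaled by TMM over all libraries, per kb of the GENCODE 44 transcript where said. Alternatives were DESeq2 1.42.0, other scalings and filters, a replicate block and omission of each library. Values in each library are given for genes on a fixed list of names and for genes past 2-fold in any pairwise comparison or past the interaction. Of the others, up to 2 per role, those with the smallest adjusted p without LPS, have log2 fold changes. The rest are given by ranges and counts. In 2 pathway lists, the 3 genes with the smallest adjusted p without LPS were named where they passed, and a further list is not reported here. Genes and lists were chosen with earlier results of these data known.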

Additional observations from a re-analysis of the deposited data

Results flagged for a closer look

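For 4 genes the KD difference with LPS differed from that without LPS in edgeR's interaction test. The interaction was 3.45 (SE 0.38, adjusted p = 0.00014) for XIRP1, whose KD difference was negative without LPS and positive with it. It was 1.66 (SE 0.28, adjusted p = 0.0055) for SYNPO2, with the same turn of sign. PALLD had 1.22 (SE 0.22, adjusted p = 0.0078) and SMTN 0.73 (SE 0.17, adjusted p = 0.044), and of these only the call of SMTN was lost in other settings.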

How the results depend on the processing

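Of 113 log2 fold changes of named genes, 84 were past the threshold. Of these, 65 kept their direction and call in every alternative, 19 lost the call in at least 1 and 0 changed sign. Of the differences that did not pass, 5 passed in at least 1 alternative: PALLD and TPM3 for KD with LPS, TPM3 for LPS in scramble, PDLIM7 for LPS in KD and VIM for KD without LPS. Scaling by library size only, which moved the median of all genes to 0.13 for KD without LPS and 0.11 with LPS, took the genes past 2-fold in KD without LPS from 8 to 5. Omission of each library gave 5 to 10 for that count, 1 to 2 past 2-fold and 10 to 16 past the adjusted p for LPS in KD. With DESeq2, 32 genes passed for KD without LPS and 6 for the interaction, and the share of all genes that passed with it is not given here. On the simulated data, 14.5% of the DESeq2 calls for KD without LPS were false, against 7.18% with edgeR. For the interaction these values were 13.3% and 4.52%.

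Sign changed only in differences that did not pass. With library size only, KD with LPS gave 0.04 for SMTN, 0.05 for CNN3 and 0.05 for MYH9, and LPS in KD gave -0.04 for TAGLN2. Omission of each library gave -0.16 to 0.06 for SMTN and -0.08 to 0.04 for MYH9 (KD with LPS), -0.39 to 0.30 for MYLK (LPS in scramble), and -0.03 to 0.05 for TAGLN2 and -0.03 to 0.02 for TPM3 (LPS in KD). The causes were not tested.

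Correlations of same-numbered deviations ran from -0.1 to 0.246, and the main tests did not pair the libraries. These low correlations do not exclude a shared order in single genes. PALLD rose from replicate 1 to replicate 3 in every group. The summed adipocyte markers fell in that order in both KD groups and rose in scramble control without LPS. With the replicate block, 27 genes passed for KD without LPS, 7 of them past 2-fold, 26 for KD with LPS, 23 for LPS in scramble, 16 for LPS in KD and 4 for the interaction. The share of all genes that passed with the block is not given here. Genes of few counts, such as MYH11 and DES, were limited by depth.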

Other observations

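Outside the 43 genes, 6 of the 23 tested targets of SRF and MRTF passed the interaction, all positive, beside 0.943% of all genes positive and 0.332% negative. The 6 are named after their values were seen. FILIP1L, a filamin-binding protein, had mean levels of 44.6 CPM in scramble control, 12.9 with LPS, 15.2 in KD and 13.3 in KD with LPS, and an interaction of 1.59 (SE 0.24, adjusted p = 0.0019). TES, a LIM protein of focal adhesions, had 62.1, 32.3, 25.7 and 24.1 CPM in the same order and 0.85 (SE 0.18, adjusted p = 0.02). CCN2, a matricellular protein, had 353, 104, 315 and 178 CPM and 0.94 (SE 0.21, adjusted p = 0.037), and THBS1, thrombospondin 1, had 11245, 5992, 11194 and 9920 CPM and 0.73 (SE 0.14, adjusted p = 0.0094). VASP, which elongates actin filaments, gave 0.58 (SE 0.13, adjusted p = 0.034) and FHL2 gave 0.56 (SE 0.12, adjusted p = 0.021).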
